A study of Mus musculus with 4 samples.

Results

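Fras1, Frem1, Frem2, Npnt, Itga8 and Grip1, 6 of the 32285 genes listed in the deposited matrices, were described in fluorescent lung cells sorted from mouse embryos at E16.5 (embryonic day). The 6 rows were taken by gene symbol, and each symbol matched 1 row. Myrf mutants carried Wt1creERT2, the R26TdTomato reporter and floxed Myrf, and Cre controls also carried Wt1creERT2 and the reporter. All pregnant females received tamoxifen at E12.5, which switches on the Cre of Wt1-expressing cells, so the reporter marks mesothelium, other Wt1-expressing cells and everything descended from either after that day. The cross as written in the labels has floxed Myrf on both sides, and the labels do not give the Myrf alleles of the controls.

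Lungs were first sorted into mutant and Cre control by their visible lung and cell shape, with PCR afterwards, and 3 to 5 lungs were pooled per genotype. About 50000 live tdTomato-positive cells were collected and about 16000 per genotype were loaded for droplet 3′ sequencing, in which each captured RNA molecule is counted once through its unique molecular identifier (UMI). There were 2 mutant and 2 control libraries. The labels do not say whether both libraries of a genotype share a pool of embryos, so p-values measure only the spread between libraries, which may be technical.

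Fras1, Frem1 and Frem2 encode very large extracellular proteins that assemble into the Fraser complex, a mesh on the tissue side of the basement membrane that anchors embryonic sheets of epithelium to the tissue beneath. Grip1 encodes an intracellular scaffold with PDZ domains that binds the tails of Fras1 and Frem2 and carries them to the basal side of the cell, and loss of any of these genes in mice can give skin blisters and kidney defects. Npnt encodes nephronectin, a basement membrane ligand that the complex helps to hold in place, and Itga8 encodes the α8 chain of integrin α8β1, the receptor through which mesenchymal cells grip nephronectin. In the kidney that pairing lies upstream of Gdnf. The mesothelium, the flat epithelium that covers the lung, lies on a basement membrane above this mesenchyme.

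Integrin α8β1 recognises the tripeptide Arg-Gly-Asp (RGD), so the coding stretches that hold an RGD were read from GENCODE vM21 transcripts and are shown for the ligand and for the complex members that have one. Capitals mark the 3 RGD codons, with 24 coding bases on either side, written 5′ to 3′. Nephronectin's single RGD began at codon 430 of 609, that of Fras1 at codon 3068 of 4010 and that of Frem1 at codon 205 of 2191, while Frem2 (3160 codons) had no RGD.
Npnt: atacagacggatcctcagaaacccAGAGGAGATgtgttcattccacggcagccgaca
Fras1: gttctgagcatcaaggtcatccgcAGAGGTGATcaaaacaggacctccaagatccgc
Frem1: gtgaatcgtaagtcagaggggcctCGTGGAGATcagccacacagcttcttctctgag

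Frem2 and Npnt, whose levels were high in the same covering cells, are both encoded on mouse chromosome 3. Among the 9 upstream windows found for 5 of the members, only 1 of Frem2 and 1 of Npnt were free of any annotated gene. A second Npnt window overlapped Npnt. The 250 bases before each start (RefSeq, GRCm38.p6, minus strand) are shown for that reason. They lie at chr3:53657356-53657605 for Frem2, with 59.6% G and C, and at chr3:132950292-132950541 for Npnt, with 74.0% G and C.
Frem2: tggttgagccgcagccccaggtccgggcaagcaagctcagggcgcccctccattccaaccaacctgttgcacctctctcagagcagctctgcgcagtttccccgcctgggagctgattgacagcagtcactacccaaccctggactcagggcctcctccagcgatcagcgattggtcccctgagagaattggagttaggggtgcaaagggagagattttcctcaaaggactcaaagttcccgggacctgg
Npnt: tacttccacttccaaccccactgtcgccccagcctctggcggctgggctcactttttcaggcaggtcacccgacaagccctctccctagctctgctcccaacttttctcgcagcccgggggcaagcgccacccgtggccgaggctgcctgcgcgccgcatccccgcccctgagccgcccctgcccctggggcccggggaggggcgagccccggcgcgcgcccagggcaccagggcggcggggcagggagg
Short letter strings for 2 factors were looked for on both strands in the same 9 windows, from RefSeq. The MYRF core CTGGCAC or CTGGTAC was in 0 of the 9, against 5.93% of 32851 windows of the same length, and the WT1 core GTGGGAG was in 0 of the 9, against 8.25%. These counts say only that the letters are not in these windows.

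By gene annotation (mm10), Fras1 spans chr5:96373955-96784728 on the plus strand, Frem1 chr4:82897920-83052339 on the minus strand and Frem2 chr3:53513938-53657355 on the minus strand. Npnt spans chr3:132881745-132950291 and Itga8 chr2:12106632-12301922, both on the minus strand, and Grip1 spans chr10:119453830-120087261 on the plus strand. Genes on the opposite strand overlap Fras1, Itga8 and Grip1, and the use of strand in counting was not given in the sources used here. The antisense partners of Fras1 and Itga8 had few UMIs, 70 for Gm33050 and 134 for E030013I19Rik over all libraries, beside 11206 for Fras1 and 5980 for Itga8. Grip1 had 2880 UMIs, and its last 3654 bases overlap the end of Helb, a helicase gene with 1581 UMIs that stood at 13.4 and 7.63 CPM in mutant libraries 1 and 2 and at 13.4 and 9.91 CPM in control libraries 1 and 2. CPM here is the number of UMIs of the gene in every 1000000 UMIs of the library or cluster named. Since the values are 3′ tag counts, they were compared between samples for each gene, not between genes.

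After filtering, the mutant libraries held 411 and 4275 cells (20954282 and 80755665 UMIs) and the control libraries 282 and 3503 cells (8184822 and 58045818 UMIs), 8471 in all. Any pair of libraries shared at most 5 cell barcodes. Myrf itself stood at 19.1 and 7.22 CPM in mutant libraries and at 75.9 and 48.5 CPM in control libraries (log2 difference -2.22 ± 0.41 SE, adjusted p = 0.132, edgeR), and 3′ counts do not tell whether the floxed part was removed. Cells were placed in 11 clusters built without the 6 genes and 42 further pathway genes. The mesothelial-like cluster 5 had all 11 mesothelial markers raised and held 0.730 and 0.304% of mutant cells, against 41.8 and 21.2% of control cells. Conversely, the smooth muscle-like cluster 2, led by Des, Tnnt2 and Actc1, held 64.5 and 33.9% of mutant cells, against 0.355 and 0.628% of control cells. A cluster with no clear identity (cluster 1) held 0 and 0.117% of mutant cells and 3.19 and 57.9% of control cells. It is called mixed because 71.2% of all cell type markers in it lay within 2-fold of the rest of control library 2. The mixed barcodes of that library held 43615 of its 114724 mesothelial marker UMIs, beside 23916463 of its 58045818 UMIs of all genes. Of its Fras1, Frem2, Npnt and Grip1 UMIs they held 27.7, 31.5, 33.2 and 29.4%. Although the labels call the sorted cells mesothelial, most mutant cells (92.7 and 96.8%) and many control cells (41.8 and 19.4%) were mesenchymal-like, that is fibroblast-, smooth muscle- or pericyte-like.

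Among all sorted cells, Grip1 was the single member that passed the test, and it fell in mutants. It stood at 5.54 and 3.94 CPM in mutant libraries 1 and 2, against 53.6 and 34.6 CPM in control libraries 1 and 2. Both mutant libraries lay far below both controls, with a log2 difference of -3.15 ± 0.27 SE (edgeR quasi-likelihood test, adjusted p = 0.0169 over 16246 genes). Grip1 passed under all 14 other settings tried, with log2 differences between -3.58 and -2.92 and adjusted p between 7.22e-15 and 0.021. Leaving out the mixed barcodes gave -3.21 with adjusted p = 0.0148. Of the 6 members, 1 passed the test, beside 0.357% of all genes tested (0.339% lower and 0.0185% higher in mutants).

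The 2 membrane-anchored members of the Fraser complex and the ligand nephronectin had lower values in both mutant libraries, without passing the test. Frem2 stood at 68.5 and 24.9 CPM in mutant libraries and at 476 and 301 CPM in control libraries (log2 difference -3.03 ± 0.47 SE, adjusted p = 0.0882, edgeR). For Npnt the values were 173 and 93.6 CPM in mutant libraries and 746 and 526 CPM in control libraries (-2.21 ± 0.36 SE, adjusted p = 0.0936, edgeR). Fras1 had 63.3 and 28.0 CPM in mutant libraries and 185 and 105 CPM in control libraries (-1.63 ± 0.39 SE, adjusted p = 0.231, edgeR). In none of the 3 genes did the groups overlap, and mutant library 1 lay above mutant library 2 each time. DESeq2 placed Frem2 (adjusted p = 5.11e-11), Npnt (5.16e-08) and Fras1 (0.00267) past the threshold with similar differences. It passed 490 of 16840 genes, where edgeR passed 58 of 16246. Without mutant library 1 the edgeR differences were -3.71 for Frem2, -2.52 for Npnt and -2.12 for Fras1. For Frem2 the difference was -2.57 without mutant library 2 and -3.24 without control library 2.

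Frem1 and Itga8 did not share this pattern. Frem1, the secreted member of the complex, stood at 18.9 and 46.3 CPM in mutant libraries and at 61.7 and 26.5 CPM in control libraries, so the groups overlapped (-0.24 ± 0.57 SE, adjusted p = 0.98, edgeR). Its difference took the opposite sign without mutant library 1 (0.35) and without control library 1 (0.34). Itga8 had 38.2 and 44.1 CPM in mutant libraries and 36.0 and 22.8 CPM in control libraries, with both mutants above both controls but a difference of 0.60 ± 0.28 SE that missed the threshold (adjusted p = 0.693, edgeR). Both mutant libraries lay below both controls for 4 of the 6 members, beside 17.8% of all genes, and above them for 1 of 6, beside 12.6%. The members' median log2 difference was -1.92, beside 0.03 over all genes tested.

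In such sums over all sorted cells, fewer cells of a type and less RNA per cell cannot be told apart. The summed level of the 11 mesothelial markers was 314 and 140 CPM in mutant libraries and 2540 and 1980 CPM in control libraries, with Muc16 at 0 in mutant library 1 and no other marker at 0. Over the same sums the 8 smooth muscle markers stood at 5570 and 2610 CPM in mutant libraries and at 702 and 987 CPM in control libraries. The part of these shifts in the differences of Grip1, Frem2, Npnt and Fras1 was not tested in these sums.

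**Figure D1:**
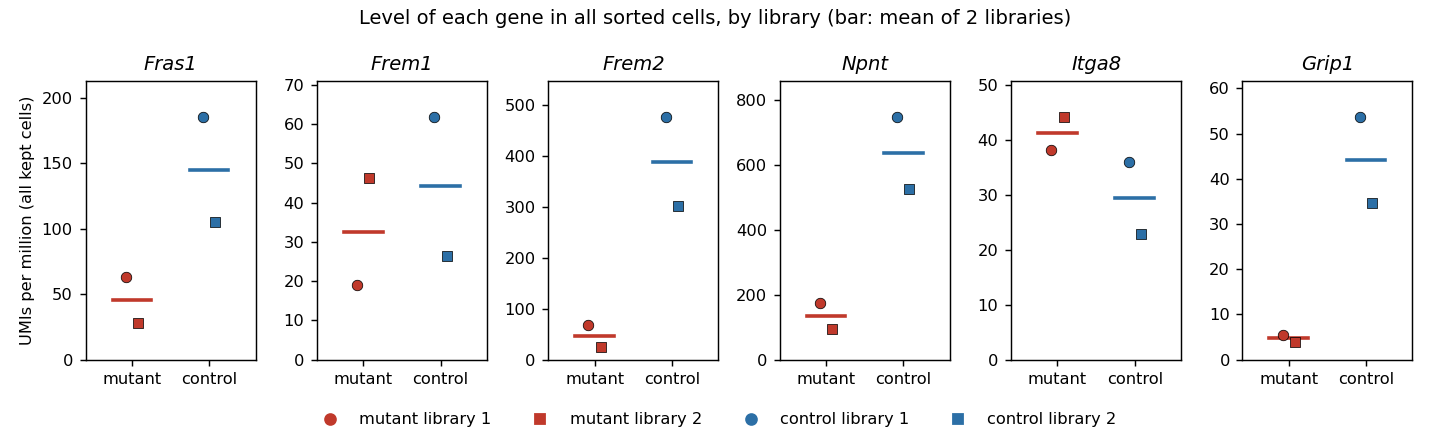
CPM of each gene (vertical axis, linear and starting at 0, a scale of its own per gene) in all sorted cells of each mutant library (red, left) and control library (blue, right), with the mean of the 2 libraries as a bar. For Fras1, Frem2, Npnt and Grip1 both mutant libraries lie below both controls, as with 5.54 and 3.94 against 53.6 and 34.6 for Grip1, while Frem1 overlaps and Itga8 lies slightly higher in mutants.

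Cell class separated the members into 2 patterns in control lungs. Frem2, Fras1, Npnt and Grip1 were highest in the mesothelial-like cluster 5. Frem2 stood there at 326 CPM in mutant library 2, which had 13 such cells, and at 875 and 703 CPM in control libraries 1 and 2. Npnt stood at 527 CPM in mutant library 2 and at 1250 and 1140 CPM in the controls. Fras1 had 176 CPM in mutant library 2 and 322 and 246 CPM in the controls, and Grip1 had 47.1 CPM and then 97.5 and 82.2 CPM. The mutant value was the lowest of the 3 for all 4 genes. The share of all genes in this order was not computed, so the order is not read as particular to these genes. With 3 and 13 mesothelial-like cells in the mutant libraries no test could be made in this cluster, and the mutant values rest on very few cells.

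Frem1 and Itga8 were nearly absent from the same cluster. Frem1 stood at 0 CPM in mutant library 2 and at 2.61 and 3.28 CPM in the controls. Itga8 had 0 UMIs of 318573 in mutant library 2, where 3 UMIs would be 9.42 CPM, and 3 and 32 UMIs in the controls (0.711 and 1.98 CPM). The 95% exact Poisson interval of the first control value ran between 0.147 and 2.08 CPM and covers counting error only. Both genes were highest among the large clusters in cluster 4, a fibroblast-like cluster led by Tcf21 and Adh1. Frem1 stood there at 267 and 120 CPM in mutant libraries and at 316 and 184 CPM in controls, and Itga8 at 123 and 93.7 CPM in mutant libraries and at 145 and 146 CPM in controls.

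Within control libraries, cluster 5 exceeded cluster 4 by 7.17-fold and 5.84-fold for Fras1 and by 3.15-fold and 3.57-fold for Npnt. Frem2 and Grip1 were close to undetected in control cells of cluster 4, with 3 and 23 UMIs for Frem2 and 1 and 3 UMIs for Grip1. The reverse held for Frem1, which was higher in cluster 4 than in cluster 5 by 121-fold and 56.1-fold. Npnt and Fras1 were thus counted both in the mesothelial-like cells and in the Itga8-bearing fibroblast-like cells. These are descriptions of clusters within the same libraries, with no test.

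Free RNA in the droplets can place UMIs in cells that do not make a gene, and in control library 2 these were most frequent. In endothelial-like cells, which should lack Frem2, the level was 2.73 CPM in mutant library 2 and 4.08 and 44.3 CPM in control libraries 1 and 2, and Npnt stood at 12.3 CPM in the mutant and at 20.4 and 97.7 CPM in the controls. Fras1 stood there at 5.46 CPM in the mutant and at 4.08 and 11.1 CPM in the controls. The 26 immune-like cells of control library 2 were higher, at 278 CPM for Frem2, 318 for Npnt and 99.7 for Fras1, where those of mutant library 2 had 14.4, 25.2 and 25.2 CPM. Values of these genes at or below such levels are not read as expression by their level alone. This holds for Frem2 in clusters 3 and 4 in mutant library 2 and both controls, the libraries with an endothelial-like value. Npnt in cluster 4, at 500 and 165 CPM in mutant libraries and 397 and 319 CPM in controls, lay above the endothelial-like levels, but in control library 2 it equalled the immune-like level. Counts per mesothelial marker separated the classes in that library too. Per 100 UMIs of the 11 mesothelial markers, cluster 4 held 2360 and 926 Npnt UMIs in mutants and 1320 and 429 in controls, whereas the control cells of cluster 5 held 26.7 and 27 and the immune-like cells of control library 2 held 18.7. Fras1 in cluster 4 gave 214 and 93.8 per 100 in mutants and 149 and 56.6 in controls, beside 6.88 and 5.85 in the control cells of cluster 5 and 5.86 in those immune-like cells.

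After each cell was thinned to 5000 UMIs, Npnt was found in 88.0 and 50.8% of mutant and 70.7 and 73.0% of control cells of cluster 4 (96.0 and 80.3%, and 88.4 and 92.1%, before thinning). In cluster 5 the thinned shares were 61.5% in mutant library 2 and 93.2 and 94.1% in the controls, and in endothelial-like cells 3.85% and then 10.0 and 16.7%, from 26, 10 and 12 cells. Among immune-like cells of control library 2 the share was 80.0% (20 of 25 cells, median depth 10194.5 UMIs). By this share alone, the 73.0% in cluster 4 of that library is not set apart from free RNA. The immune-like cells there held 734 mesothelial marker UMIs among 431350 UMIs, and cluster 4 held 258 among 3470875. Itga8 was found in 28.0 and 37.1% of mutant and 56.1 and 49.4% of control cells of cluster 4, but in 0 of 13 mutant cells and in 0 and 0.83% of control cells of cluster 5. Thinning left out at most 31 cells of any library in clusters 2, 4 and 5, and 27 in cluster 4. Median depth before thinning was 26343 and 14813 UMIs per cell in mutant and 30936 and 18130.5 in control cells of cluster 4, and 5711 in mutant library 2 and 8878 and 8986 in the controls for endothelial-like cells.

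**Figure D2:**
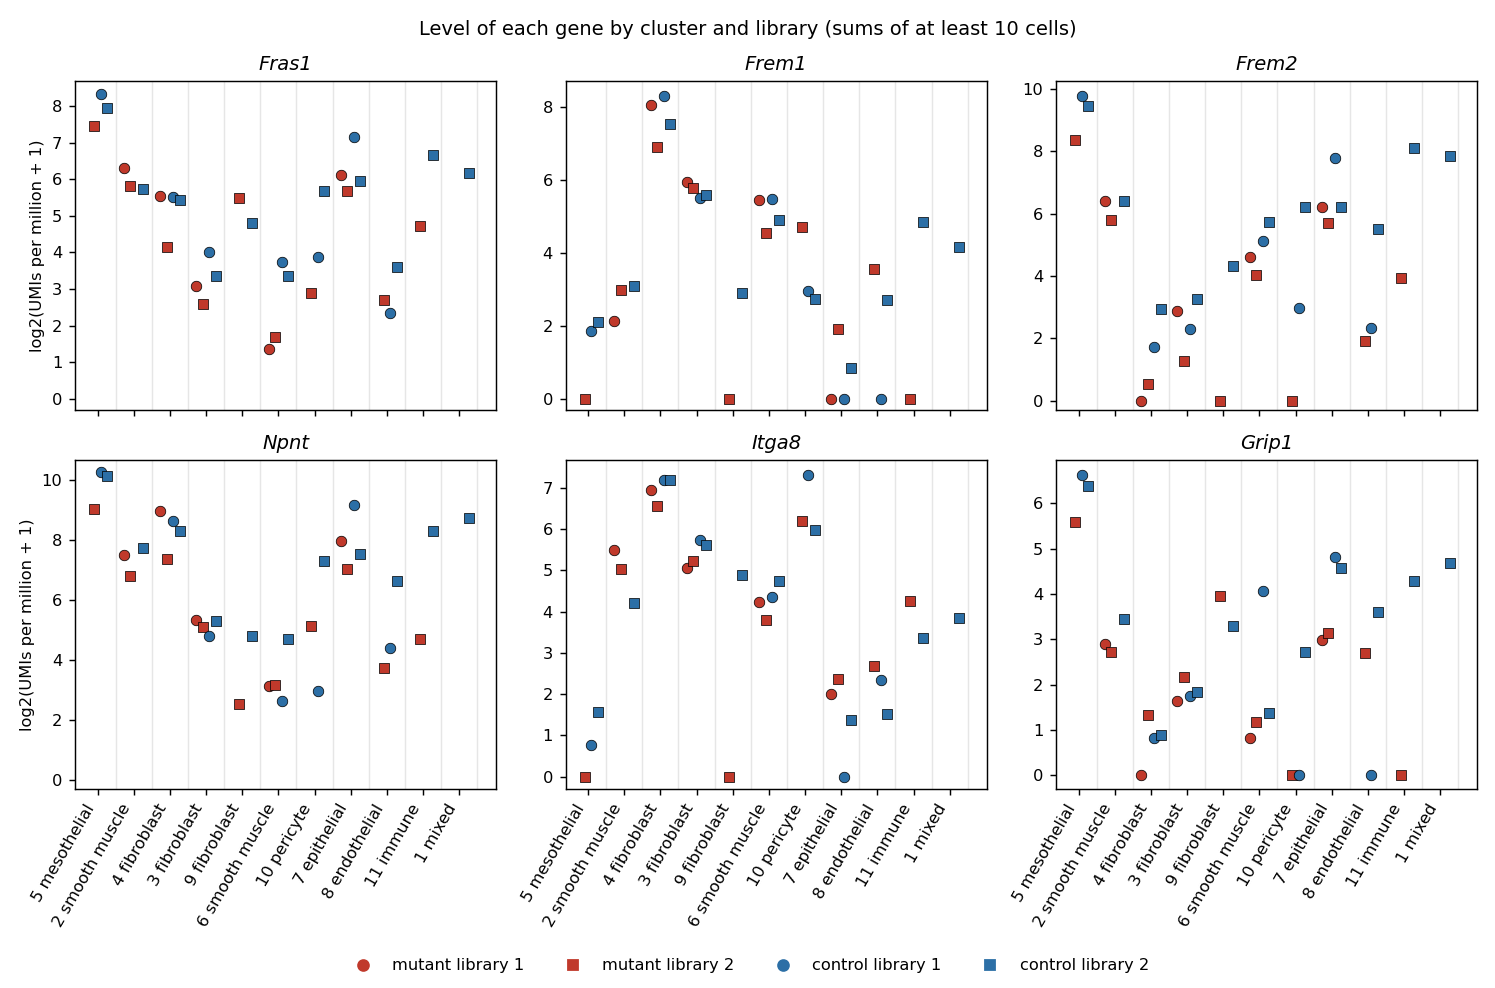
Level of each gene, log2(CPM + 1), in every cluster with at least 10 cells of a library, with mutant libraries in red left of control libraries in blue and a vertical scale of its own per gene. Fras1, Frem2, Npnt and Grip1 peak in the mesothelial-like cluster (Npnt at 1250 and 1140 CPM in controls), and Frem1 and Itga8 in fibroblast-like cluster 4 and, for Itga8, pericyte-like cells.

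The remaining classes filled in the order. Itga8 was also high in pericyte-like cells, at 72.1 CPM in mutant library 2 and 157 and 61.9 CPM in the controls (26 mutant, 11 and 10 control cells), a spread that overlaps that of cluster 4. Cluster 3, fibroblast-like cells led by Lef1 and Wnt2, had Itga8 at 32.0 and 36.6 CPM in mutants and 52.4 and 47.7 CPM in controls. Its Itga8 level was below that of cluster 2 in mutant library 1 (43.9 CPM) and above it in mutant library 2 (31.5 CPM). Cluster 3 came next after cluster 4 for Frem1, with 60.9 and 54.4 CPM in mutants and 44.5 and 47.7 CPM in controls. Epithelial-like cells, which come from the endoderm, had counts of some members. Frem1 had at most 6 UMIs in them in any library. Frem2 stood in them at 73.7 and 51.0 CPM in mutants and 222 and 73.1 CPM in controls, and Npnt at 249 and 131 CPM in mutants and 572 and 185 CPM in controls. Per 100 mesothelial marker UMIs this was 26.3 and 34.3 Frem2 UMIs in mutants and 25.8 and 19.8 in controls. Mesothelial-like cells of the controls held 18.7 and 16.7, and mutant cells of cluster 2 held 22.6 and 19.1. By this ratio Frem2 was not clearly set apart from free RNA in either control library or in mutant library 1. Whether epithelial-like cells make some of these markers themselves was not tested. Itga8 was low in the epithelial-like cells, at 2.99 and 4.13 CPM in mutants and 0 and 1.57 CPM in controls. Immune-like and pericyte-like cells of control library 2 showed Frem2 at 278 and 73.2 CPM, where the mixed barcodes of that library showed 230 CPM.

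Cluster 2, the population found almost entirely in mutants, held most of the Frem2, Fras1 and Grip1 UMIs of the mutant libraries, and few of the Frem1 UMIs (12.2 and 5.57%). By comparison, mutant library 1 had 14225826 of its 20954282 UMIs of all genes in cluster 2. Mutant library 2 had 29689683 of its 80755665 there. Frem2 stood there at 84.2 and 55.0 CPM in mutants, and 83.4 and 81.2% of all Frem2 UMIs of the mutant libraries lay in it. Fras1 stood at 78.0 and 55.2 CPM and had 83.6 and 72.4% of its mutant UMIs there. For Grip1 the level was 6.47 and 5.62 CPM, with 79.3 and 52.5% of its UMIs. The 22 cluster 2 cells of control library 2 gave 84.9 CPM for Frem2, 52.4 for Fras1 and 9.98 for Grip1. These values lie below those of immune-like cells in that library (278, 99.7 and 18.5 CPM). They are not read as expression by their level alone, and the Grip1 value rests on 4 UMIs.

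Cluster 2 also carried both the ligand and the receptor gene. Npnt stood at 182 and 111 CPM in mutants and 215 CPM in the 22 control cells. That control value lies below the 318 CPM of immune-like cells in control library 2. Itga8 stood at 43.9 and 31.5 CPM in mutants and 17.5 CPM in the 22 control cells. Thinned to 5000 UMIs, 51.4 and 35.6% of mutant cluster 2 cells had an Npnt UMI and 13.8 and 12.4% an Itga8 UMI. Frem1, by contrast, was low, at 3.37 and 7.01 CPM in mutants. In mutant cells of cluster 2 the mesothelial markers summed to 373 and 288 CPM, with Muc16 at 0 in mutant library 1 and all 11 detected in mutant library 2.

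Set side by side with the mesothelial-like cells of controls, mutant cells of cluster 2 were lower by 14.9-fold for Grip1, 11.3-fold for Frem2, 8.16-fold for Npnt and 4.26-fold for Fras1, as ratios of the means of 2 libraries each. The summed mesothelial markers differed by 13.4-fold (373 and 288 CPM against 4680 and 4200 CPM). Itga8 went the other way, with 43.9 and 31.5 CPM in mutant cells of cluster 2 against 0.711 and 1.98 CPM in control cells of cluster 5. Per 100 mesothelial marker UMIs, mutant cells of cluster 2 held 22.6 and 19.1 Frem2 UMIs and control cells of cluster 5 held 18.7 and 16.7, and Grip1 gave 1.74 and 1.96 against 2.08 and 1.96. Fras1 gave 20.9 and 19.2 against 6.88 and 5.85, and Npnt 48.9 and 38.7 against 26.7 and 27. Cluster and genotype cannot be told apart in these values, and no test was made of them.

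**Figure D3:**
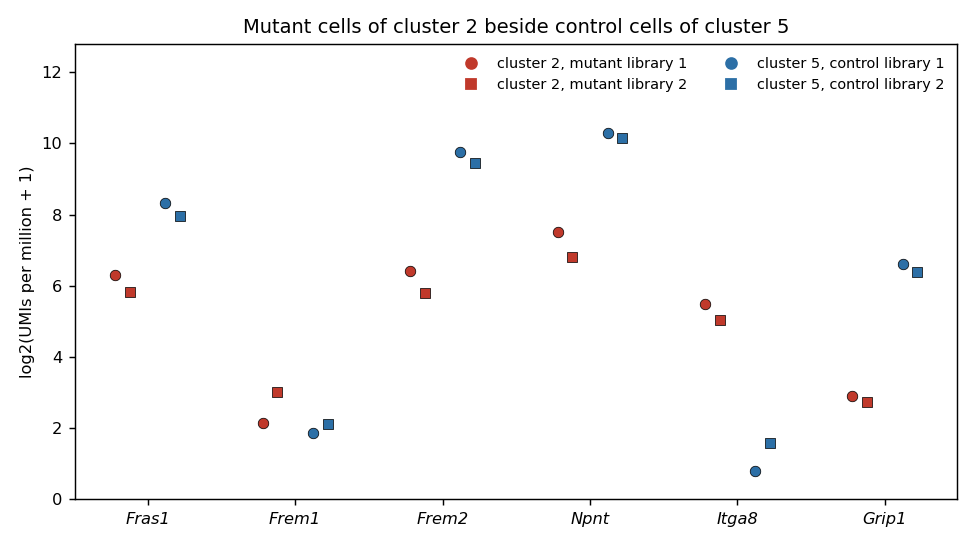
Level of each gene, log2(CPM + 1), in mutant cells of the smooth muscle-like cluster 2 (red, left) and control cells of the mesothelial-like cluster 5 (blue, right), by library. Fras1, Frem2, Npnt and Grip1 are lower in mutant cluster 2 cells, Itga8 is higher (43.9 and 31.5 against 0.711 and 1.98 CPM), and Frem1 is low in both.

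**Figure D4:**
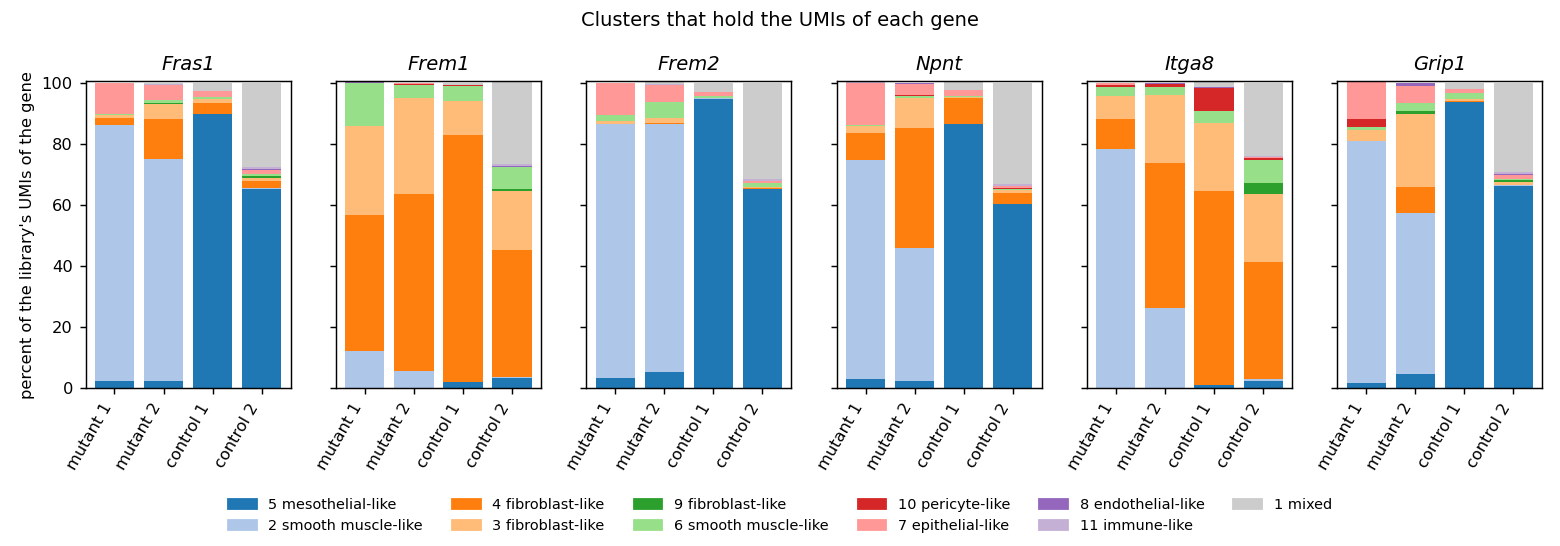
Percent of each library's UMIs of a gene (vertical axis) that lay in each cluster (colours), with mutant libraries left of control libraries. Cluster 2 holds 83.4 and 81.2% of Frem2 UMIs in mutants, beside 64.5 and 33.9% of mutant cells. Its mutant cells have 14225826 and 29689683 UMIs of all genes, where the whole libraries have 20954282 and 80755665. The mesothelial-like cluster holds 94.7 and 65.1% of Frem2 UMIs in controls. Cluster 4 holds 44.6 and 57.9% of Frem1 UMIs in mutants and 80.8 and 41.7% in controls.

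Mesenchymal-like cells were then compared between genotypes as a class, with 381 and 4140 mutant and 118 and 678 control cells. None of the 6 members passed, beside 0.014% of 14320 genes (2 genes, both higher in mutants; 1200 had an unadjusted p under 0.05, and DESeq2 passed 355). Frem2 stood at 68.3 and 23.1 CPM in mutants and 10.6 and 22.6 CPM in controls (log2 difference 1.41 ± 0.52 SE, adjusted p = 0.503, edgeR). For Fras1 the values were 63.6 and 26.9 CPM in mutants and 26.1 and 20 CPM in controls (1.02 ± 0.36 SE, adjusted p = 0.487, edgeR). Frem1 had 21.7 and 48.2 CPM in mutants and 149 and 67.4 CPM in controls (-1.47 ± 0.54 SE, adjusted p = 0.504, edgeR). The Frem2 value of 22.6 CPM in control library 2 lies below the 44.3 CPM of its endothelial-like cells, and so is not read as expression. The sums have a different make-up, since cluster 2 gave 265 of the 381 and 1448 of the 4140 mutant cells, against 1 of the 118 and 22 of the 678 control cells. Over 8 other settings Frem2 lay between 0.61 and 2.19, Fras1 between 0.47 and 1.47 and Frem1 between -2.30 and -0.83. Without mutant library 2 the 3 differences were 1.93, 1.47 and -2.30. With all libraries and no low-count filter all 3 passed in edgeR, at 1.44 (adjusted p = 0.000156), 1.06 (0.0155) and -1.41 (0.000231). That setting passed 815 of 22712 genes.

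Npnt, Itga8 and Grip1 missed the threshold in the mesenchymal-like class too. Npnt had 166 and 91.7 CPM in mutants and 168 and 102 CPM in controls (-0.01 ± 0.34 SE, adjusted p = 0.999, edgeR). Itga8 stood at 43.7 and 45.9 CPM in mutants and 87.1 and 61.5 CPM in controls, with no overlap (-0.63 ± 0.26 SE, adjusted p = 0.598, edgeR). Grip1 was low in both, at 5.51 and 3.65 CPM in mutants and 3.94 and 2.86 CPM in controls (0.53 ± 0.41 SE, adjusted p = 0.926, edgeR). Both mutants were below both controls for 2 of 6 members, beside 20.8% of genes, and above for 2 of 6, beside 13.0%.

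Clusters 3, 4 and 6 had at least 20 cells in all 4 libraries and allowed the comparison within a cluster. No member passed in any of them, beside 0.0% of 11284, 10589 and 10830 genes (edgeR; 278, 157 and 403 genes had an unadjusted p under 0.05, and DESeq2 passed 1, 1 and 3). Nephronectin in cluster 4 stood at 500 and 165 CPM in mutants and 397 and 319 CPM in controls (-0.13 ± 0.44 SE, adjusted p = 0.999, edgeR), with the mutant values on either side of the controls. Itga8 had lower values in both mutants than in both controls in all 3 clusters. Counting every member, both mutants lay below both controls for 2 of 6 in cluster 3, 1 of 4 tested in cluster 4 and 3 of 5 tested in cluster 6, beside 15.6, 14.7 and 18.5% of genes. They lay above them for 1 of 6, 0 of 4 and 0 of 5, beside 8.04, 8.91 and 10.8%. For Itga8 the sizes were small, with log2 differences of -0.41 ± 0.27, -0.39 ± 0.29 and -0.55 ± 0.36 SE (adjusted p = 1.0, 0.999 and 0.991, edgeR). Frem1 differences lay between -0.38 and 0.40.

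In cluster 6, smooth muscle-like cells led by Crh and Myh11 that both genotypes held, Fras1 stood at 1.55 and 2.23 CPM in mutants and 12.3 and 9.20 CPM in controls (-2.12 ± 0.61 SE, adjusted p = 0.991, edgeR). Frem2 stood at 23.2 and 15.2 CPM in mutants and 33.5 and 52.8 CPM in controls (-1.18 ± 0.35 SE, adjusted p = 0.991, edgeR). Without mutant library 1 its difference was -1.33. The Fras1 values in mutant library 2 and control library 2 lie below those of endothelial-like cells (5.46 and 11.1 CPM). Frem2 in control library 2 lies above its endothelial-like cells (44.3 CPM) but below its pericyte-like cells (73.2 CPM). The mesothelial markers in cluster 6 summed to 139 and 58.2 CPM in mutants and 134 and 143 CPM in controls. At 0 were 5 and 6 of the 11 in mutants and 5 and 0 in controls. In mutant library 2 these included Upk3b, Lrrn4 and Bnc1, and in control library 1 Lrrn4, Msln and Bnc1. Their part in the Frem2 and Fras1 values was not tested. In cluster 4, Fras1 stood at 45.5 and 16.7 CPM in mutants and 44.9 and 42.1 CPM in controls (-0.66 ± 0.40 SE, adjusted p = 0.999, edgeR). Without mutant library 1 that difference was -1.15. Frem2 in cluster 3 stood at 6.41 and 1.39 CPM in mutants and 3.97 and 8.59 CPM in controls (-1.22 ± 0.70 SE). Without mutant library 1 it gave -2.08, at levels below those of endothelial-like cells in the 3 libraries left. Frem2 and Grip1 in cluster 4 and Grip1 in cluster 6 were too low for the test.

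**Figure D5:**
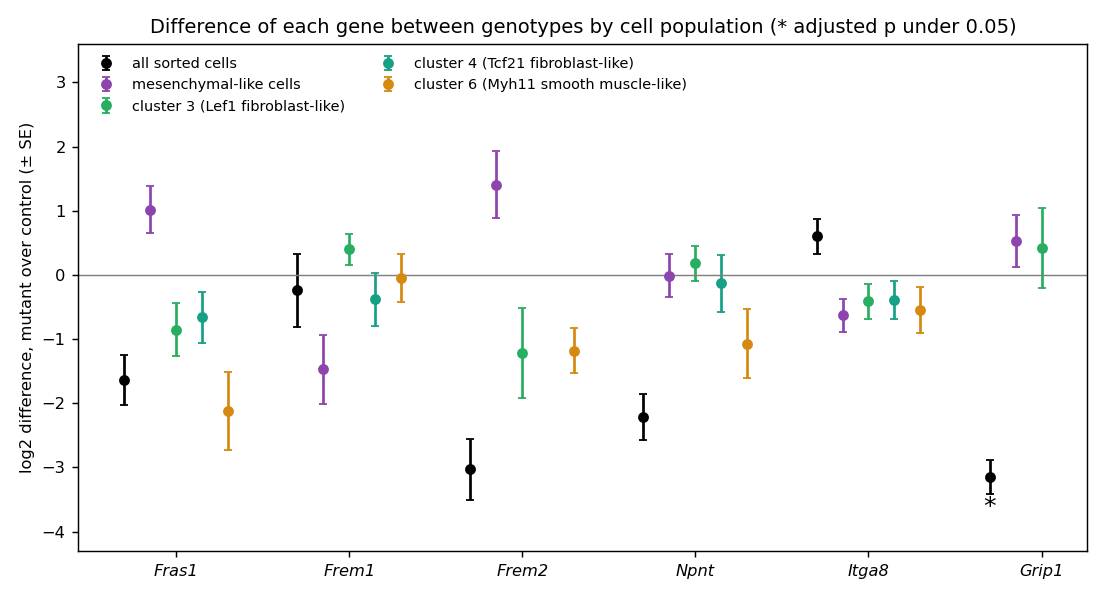
Log2 difference of each gene, mutant over control, with its standard error (edgeR, 2 libraries each), in all sorted cells and in 4 mesenchymal populations, with missing points where a gene was too low to test. Grip1 in all sorted cells, at -3.15, is the only point past an adjusted p of 0.05, and in mesenchymal-like cells the points lie at 1.02 for Fras1, 1.41 for Frem2 and -0.01 for Npnt, none of them past it.

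Of 42 further genes of the same adhesion system that were followed, 40 were tested in all sorted cells and 0 passed in either direction. Their median log2 difference was 0.07, beside 0.03 over all genes. Among proteins tied to the Fraser complex (4 tested, none passed), Crim1, a membrane protein that binds growth factors, stood at 65.4 and 28.8 CPM in mutants and 217 and 116 CPM in controls (-1.78 ± 0.40 SE, adjusted p = 0.207, edgeR). Hmcn1, a very long extracellular protein, gave -1.34 (adjusted p = 0.387), while Vwa2 and Col7a1 were under 2 CPM in every library. Of the 8 integrin chains, none passed. Itga3, a laminin-binding chain, stood at 21.1 and 6.25 CPM in mutants and 60.5 and 41.7 CPM in controls (-1.90 ± 0.48 SE, adjusted p = 0.26, edgeR). Itgb5, Itga5 and Itga9 gave 0.75, 0.80 and 0.31 (adjusted p = 0.337, 0.566 and 0.979, edgeR). Itgb1, the partner of the α8 chain, had 1120 and 595 CPM in mutants and 840 and 621 CPM in controls (0.27 ± 0.37 SE, adjusted p = 0.979, edgeR).

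Of the 13 laminins, nidogens and proteoglycans, none passed. Lama5, the α5 chain of epithelial laminins, stood at 99.8 and 36.6 CPM in mutants and 172 and 143 CPM in controls (-1.20 ± 0.40 SE, adjusted p = 0.424, edgeR). By class it stood at 98.0 and 33.5 CPM in mutant and 10.9 and 19.6 CPM in control mesenchymal-like cells, and at 306 and 272 CPM in control mesothelial-like cells. Nid2, Lamb2 and Hspg2 gave -0.86, -0.98 and 0.71 (adjusted p = 0.278, 0.447 and 0.774, edgeR). The other ligands listed for integrin α8β1 had positive values in all sorted cells without passing, and Vtn was too low for the test. Spp1 gave 1.90, Tnc 0.92 and Fn1 0.55 (adjusted p = 0.394, 0.428 and 0.929, edgeR). In mesenchymal-like cells they gave 3.46, -0.17 and -0.14, none passing. The Tnc transcript read had 0 RGD. In all sorted cells Fn1 stood at 400 and 153 CPM in mutants and 220 and 164 CPM in controls. Spp1 stood there at 2.10 and 1.44 CPM in mutants and 0.244 and 0.586 CPM in controls, a very low level. Gdnf and Gfra1, on the kidney pathway below nephronectin, gave 0.01 and 0.10 (adjusted p = 0.999 and 0.988, edgeR), at 0.859 and 0.632 CPM in mutants and 0.855 and 0.689 CPM in controls for Gdnf. Ret was too low for the test. The paralogs Frem3, Grip2 and Egfl6 gave -1.70, -0.95 and -0.44, none passing (adjusted p = 0.731, 0.979 and 0.979, edgeR). Of the 7 integrin adaptors none passed, with Vcl, Lims1, Ptk2 and Fermt2 between 0.22 and 0.49 (adjusted p between 0.917 and 0.979, edgeR). In mesenchymal-like cells 0 of 38 tested passed, with a median of -0.14 beside 0.01 over all genes, and in clusters 3, 4 and 6 it was 0 of 32, 29 and 32.

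Across the 24 sums of at least 20 cells of 1 cluster in 1 library, the members varied together to different degrees. Pearson's r of log2(CPM + 1) was 0.90 between Fras1 and Npnt, 0.86 between Frem2 and Grip1 and 0.82 between Frem1 and Itga8, and -0.80 between Itga8 and Grip1. Npnt was less closely tied to Frem2 (0.42) and Grip1 (0.45), and gave -0.21 with Itga8. Among 8955 genes averaging at least 10 CPM, those most like Frem2 were Lama5 (0.965), Itga3 (0.944) and Ppm1l (0.941). Closest to Fras1 were Rspo1 (0.91), Tgm2 (0.898) and Baiap2l1 (0.89), and to Npnt Ces1d (0.928), Cxcl14 (0.882) and Bmp3 (0.871). Grip1 was nearest to Ppm1l (0.902), Mpzl2 (0.893) and Atp9a (0.891). Frem1 was nearest to Tril (0.943), Adh1 (0.923) and Snai2 (0.919), and Itga8 to Angpt1 (0.939), S1pr3 (0.938) and Lbh (0.928). Sums from 1 library share its depth and free RNA, so these are descriptions.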

How the data were processed

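The deposited values were whole-number UMI counts per gene and cell barcode, made by the authors with Cell Ranger 6.0.2 on mm10, per the submitters' processing notes. Groups and library numbers came from the sample titles. A barcode was kept if it had 1000 or more detected genes and no more than 15% of its UMIs from mitochondrial genes, with 15.6 and 5.92% failing in mutant and 32.5 and 9.12% in control libraries. Doublet scoring (Scrublet in scanpy 1.11.5) marked only 9 of 8733 barcodes by its own threshold, so the highest-scoring 0.8% per 1000 barcodes were removed (262). Variable genes (3000, without the members, the 42 listed genes and 495 cell cycle genes) were reduced to 30 components and clustered by the Leiden method (resolution 0.4), and clusters were named from marker lists. A cluster with at least 66% of markers within 2-fold of its library was left as mixed.

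Counts were summed per library and population and tested with edgeR 4.0.16 (quasi-likelihood, TMM, filterByExpr, R 4.3.3) with Benjamini-Hochberg adjustment over all genes, at an adjusted p of 0.05. The same code was tested on simulated data. DESeq2 1.42.0, other filters, scalings, cell sets and clusterings, a block by library number and leaving out each library were alternatives. Of the deposited gene IDs, 32158 matched GENCODE vM21. How barcodes were called, which annotation release was used and whether strand was used in counting are not stated in the sources used here.

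The members were always named. Of each pathway list, up to 4 genes with the smallest p in all sorted cells were named, and the 3 genes most like each member by Pearson's r. Itgb1 was added after its values were seen, as the partner of the α8 chain. Members and lists were chosen with earlier results of these data known. Replicate libraries of a genotype differed by far more than counting noise.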

Additional observations from a re-analysis of the deposited data

How the results depend on the processing

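The count of genes past the threshold was sensitive to the processing, while the members' directions mostly were not. In all sorted cells 58 genes passed, and 490 with DESeq2, 693 with no low-count filter, 34 without mixed barcodes, 125 without epithelial-, endothelial- and immune-like cells, and 74 to 1036 when 1 library was left out. In mesenchymal-like cells 2 passed, and 355 with DESeq2, 815 with no filter and 19 to 836 with 1 library left out. In clusters 3, 4 and 6 none passed, and 1, 1 and 3 with DESeq2, 53, 12 and 44 with no filter, and 5 to 713, 2 to 339 and 20 to 553 with 1 library left out. A library left alone in its group was assumed to vary like the other group.

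In all sorted cells, Fras1, Frem2 and Npnt passed with DESeq2 (-1.60, -3.01 and -2.18) and with no filter (-1.61, -3.02 and -2.19), and Frem2 with equal cell numbers (-3.12). With 1 library left out they ranged from -2.12 to -1.26, -3.71 to -2.57 and -2.52 to -1.95. Frem1 ranged from -1.26 to 0.35 and changed sign. Grip1 passed in all 14 alternatives and Itga8 in none (0.31 to 0.84).

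Npnt changed sign in mesenchymal-like cells with DESeq2 (0.02), no filter (0.03) and with 1 library left out (-0.32 to 0.36, turning at 0.29 without mutant library 2 and at 0.36 without control library 1). With 1 library left out Npnt also turned in cluster 3 (-0.02 to 0.54, negative without control library 1), in cluster 4 (-0.89 to 0.38, with 0.38 without mutant library 2 and 0.00 without control library 1) and in cluster 6 (-1.52 to 0.76, positive without control library 2), and Frem1 in cluster 4 (-0.82 to 0.03, positive without control library 1) and cluster 6 (-0.35 to 0.31, with 0.31 without mutant library 2 and 0.20 without control library 1). No member in these populations had passed, though Fras1 (1.06), Frem1 (-1.41) and Frem2 (1.44) passed in mesenchymal-like cells with no filter.

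The library numbers are shared by the genotypes, but nothing in the labels says that they pair the samples. Deviations of same-numbered libraries correlated at 0.362 in all sorted cells, 0.178 in mesenchymal-like cells and 0.298, 0.383 and 0.296 in clusters 3, 4 and 6. With the library number as a replicate block, 526 genes passed in all sorted cells, 5 in mesenchymal-like cells and 96, 54 and 47 in clusters 3, 4 and 6. Fras1 (-1.66), Frem2 (-3.13), Npnt (-2.23) and Grip1 (-3.13) passed in all sorted cells with the block.

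All 36 recomputed levels by class stayed within the spread between libraries when the members were allowed among the clustering genes or the resolution was doubled. Mesothelial-like cells of mutants numbered 3 and 13, too few for a test. Free RNA in control library 2 limits what can be read from its low levels.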
